A study of Mus musculus with 25 samples.

Results

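The paralogous microRNA clusters miR-106b-25 and miR-106a-363 were followed through mouse mammary tumours and normal mammary tissue. The 7 members were chosen by their names on the array: mmu-miR-106b-5p, mmu-miR-93-5p and mmu-miR-25-3p of the first cluster, and mmu-miR-106a-5p, mmu-miR-18b-5p, mmu-miR-20b-5p and mmu-miR-363-3p of the second. The prefix for mouse is left out from here on. Probes for 6 of the 7 were on the array, among 1122 mouse miRNAs, and miR-106a-5p, which had no probe row under that name in the files used, was not analysed here. The 3 members of miR-106b-25 and miR-20b-5p were detected on all 25 arrays, while miR-18b-5p and miR-363-3p were detected on 0. In tumours of all genotypes together miR-93-5p and miR-20b-5p were higher than in normal tissue, by 1.07 and 1.40 on the log2 scale. No detected member differed between the tumour genotypes by the test used.

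The study addressed mammary tumours in which an active Met receptor and loss of p53 were combined. All samples came from FVB females. The 8 MetTrp53 tumours (labelled MMTV-Met;Trp53fl/+, with Cre per the design text) and the 7 Met tumours (MMTV-Met) carried a Met transgene under the mouse mammary tumour virus promoter, which is active in mammary epithelium and in some other tissues. The 8 Trp53 tumours (Trp53fl/+, with Cre) carried 1 floxed Trp53 allele and no Met transgene. Normal tissue was wild-type mammary gland in 2 pools, 1 from multiparous and 1 from nulliparous females, so the spread between single normal animals was not measured. The sources used here do not say which cells expressed Cre, nor the animals' ages. Pathology was stated for 22 of the 23 tumours, of which 7 were called spindloid, a spindle-shaped growth pattern: 3 MetTrp53, 1 Met and 3 Trp53 tumours. Parity was uneven too, with 2 of 8 MetTrp53, 6 of 7 Met and 2 of 8 Trp53 tumours from females labelled multiparous. It was not stated for 3 Trp53 tumours and 1 Met tumour, and the other tumours were labelled nulliparous. The labels do not say that each tumour came from its own animal, and 2 title numbers were each shared by 2 Trp53 tumours, so the p-values speak only to the spread among these tumours and pools, part of which may be technical.

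RNA was hybridised to one-colour Agilent miRNA arrays. A level here is the log2 processed signal of a miRNA's probes after each array was scaled to the 75th percentile of the 220 probes detected on all arrays, a value that spanned 3.27-fold between arrays. Signals were held at a floor, at a level of 3.61, and a miRNA was called detected where a share above 0.5 of the spots of any of its probes were well above background. By that rule 179 to 283 mouse miRNAs were detected per array, and 283 miRNAs entered the tests. The number of arrays limits the precision, and probes of different miRNAs bind with different strength, so a level is compared between samples and never between miRNAs.

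MicroRNAs are short RNAs that guide Argonaute proteins to messenger RNAs, chiefly by pairing of the seed, the bases near their 5′ end, and so lower the output of those messages. The clusters arose by duplication together with the miR-17-92 cluster, a locus known as oncogenic in lymphoma and tied to proliferation, and each holds several hairpins made from 1 transcript. In human cells miR-106b and miR-93 are known to repress the cell cycle inhibitor CDKN1A and miR-25 the pro-apoptotic BCL2L11, both of them brakes that act downstream of E2F1 or TGF-beta. The miR-106b-25 hairpins lie inside the gene of Mcm7, a subunit of the replicative helicase, while miR-106a-363 lies on the X chromosome.

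The mature sequences show which members can share targets, and how little separates members from each other and from miR-17-92. All 7 were matched in the RefSeq table (GRCm38.p6). They are printed 5′ to 3′ with the seed, bases 2 to 8, in capitals, first the members and then the relatives that the results below set beside them.
miR-106b-5p: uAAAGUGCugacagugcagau
miR-93-5p: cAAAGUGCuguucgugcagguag
miR-106a-5p: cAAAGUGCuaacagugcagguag
miR-20b-5p: cAAAGUGCucauagugcagguag
miR-18b-5p: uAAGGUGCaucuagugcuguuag
miR-25-3p: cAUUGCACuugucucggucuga
miR-363-3p: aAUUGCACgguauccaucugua
miR-17-5p: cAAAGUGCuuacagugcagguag
miR-20a-5p: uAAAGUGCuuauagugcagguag
miR-18a-5p: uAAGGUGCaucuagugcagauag
miR-92a-3p: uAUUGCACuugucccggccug

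Of the members, 4 held the seed AAAGUGC, namely miR-106b-5p, miR-93-5p, miR-106a-5p and miR-20b-5p, and it was shared with miR-17-5p and miR-20a-5p of miR-17-92. The seed AUUGCAC joined miR-25-3p, miR-363-3p and miR-92a-3p, and AAGGUGC joined miR-18b-5p and miR-18a-5p. Positions are counted from 1 at the 5′ end, with the base of the first-named miRNA first. From miR-20b-5p to miR-20a-5p there were 2 differences over 23 bases, C1U and C10U, both outside the seed. From miR-106a-5p to miR-17-5p there was 1 difference, A10U, and from miR-18b-5p to miR-18a-5p there were 2, U18A and U20A. Within miR-106b-25, miR-106b-5p and miR-93-5p differed at 5 of 21 bases, U1C, A11U, C12U, A13C and A20G. From miR-25-3p to miR-92a-3p there were 3 differences over 21 bases, C1U, U14C and U18C. How far a probe for one of these miRNAs also binds its near-identical relative was not tested, so values of miR-20b-5p and miR-20a-5p cannot be fully told apart.

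In GRCm38.p6 the hairpins Mir106b, Mir93 and Mir25 lie on the minus strand at chr5:138165321-138165818, a span of 498 bases within Mcm7 (chr5:138164583-138172111). The 6 hairpins Mir106a, Mir18b, Mir20b, Mir19b-2, Mir92-2 and Mir363 lie on the minus strand at chrX:52741693-52742567, a span of 875 bases. Of these only Mir106a overlapped another annotated gene, the long non-coding RNA Kis2. The mature sequences of miR-19b-3p and miR-92a-3p are the same from the X-linked hairpins and from miR-17-92 on chromosome 14, so their signals cannot be assigned to either cluster. The promoter window of the upstream start of Mcm7 is shown, 300 bases that span it, at chr5:138171834-138172133 on the minus strand, from RefSeq. Capitals mark matches to the E2F motif written as TTTCCCGC, TTTCGCGC, TTTGCCGC or TTTGGCGC, searched on both strands.
Mcm7 promoter: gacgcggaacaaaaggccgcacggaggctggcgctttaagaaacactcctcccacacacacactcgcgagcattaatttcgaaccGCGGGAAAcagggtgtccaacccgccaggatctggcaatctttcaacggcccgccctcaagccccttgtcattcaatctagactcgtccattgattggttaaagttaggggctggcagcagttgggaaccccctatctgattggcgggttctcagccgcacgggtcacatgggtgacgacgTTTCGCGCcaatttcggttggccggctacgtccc
This window held 2 matches, TTTCGCGC as printed at bases 267 to 274 and TTTCCCGC on the opposite strand at bases 86 to 93, which do not overlap. Both lie inside the annotated extent of Mcm7, whose 5′ boundary falls within the window. Any bearing of the matches on the members' levels was not tested. The window at the gene's other listed start held 0. Of all 32851 promoter windows of that length in the table, 2.26% held a match. E2F factors are known to activate Mcm genes at the entry into S phase, and a match to letters is a description of the window, not a bound site.

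Detection was uneven among the members. For miR-106b-5p, miR-93-5p, miR-25-3p and miR-20b-5p, 100% of the spots of at least 1 probe were well above background on each of the 23 tumour arrays and on both pools. For miR-18b-5p, with 4 probes, and miR-363-3p, with 2 probes, 0% of spots were well above background on any tumour or pool, so the array gives only a bound for them and no change is stated. Thus 3 of 3 measured members of miR-106b-25 and 1 of 3 measured members of miR-106a-363 were detected. Being detected on 0 arrays was common, at 725 of all 1122 mouse miRNAs, so these counts say little about the clusters. The scanner software's own flag and a stricter rule of 90% of spots gave the same counts for these 6 members. Being not well above background does not show absence, since a probe's binding strength sets the level from which it can be seen.

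The opposite arms of the same hairpins were mostly below detection too. Of the 7 other arms, all with probes, 6 were detected on 0 arrays, as were 725 of all 1122 mouse miRNAs. The exception was miR-106b-3p, detected in Met tumours 4 and 7 and Trp53 tumour 5, and on neither pool. Its count depended on the rule, with 12 arrays by the software's flag and 1 by the 90% rule, and the flag also marked miR-18b-3p on 1 array. In those tumours up to 90% of the spots of a probe were well above background, while its level was 3.61 to 3.66, next to the floor of 3.61. In the miR-17-92 list of 14 miRNAs, all on the array, 3 (miR-19b-3p, miR-20a-5p and miR-92a-3p) were seen on each of the 25 arrays and 6 on 0. Of those 6, miR-19b-2-5p and miR-92a-2-5p are arms of the X-linked hairpins Mir19b-2 and Mir92-2, so they belong to miR-106a-363 by position.

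**Figure D1:**
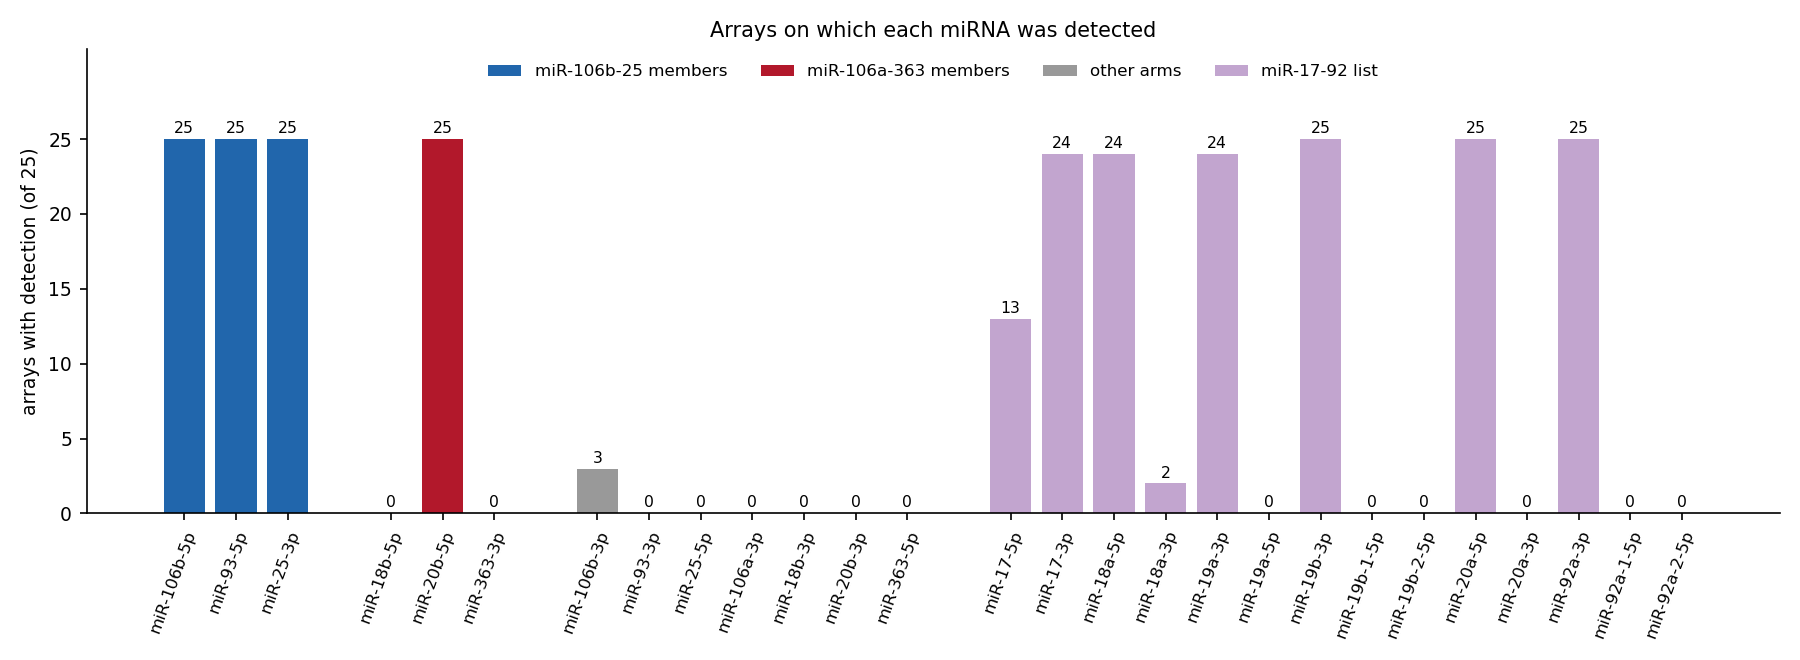
Number of arrays, of 25, on which each miRNA was detected (bars start at 0), for members of miR-106b-25 (blue), members of miR-106a-363 with probes (red), the other arms of the members' hairpins (grey) and the miR-17-92 list (lilac), in which miR-19b-2-5p and miR-92a-2-5p, both at 0, come from X-linked hairpins of miR-106a-363. All miR-106b-25 members stand at 25, whereas among the miR-106a-363 members miR-20b-5p stands at 25 and miR-18b-5p and miR-363-3p at 0.

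The first member by position, miR-106b-5p, had a lowest, median and highest level of 6.63, 7.45 and 7.95 in MetTrp53 tumours, 7.16, 7.81 and 8.03 in Met tumours and 6.74, 7.29 and 7.84 in Trp53 tumours, against 6.60 and 6.79 in the normal pools. Its means were 7.43 ± 0.39 in MetTrp53 (SD, n = 8), 7.67 ± 0.33 in Met (n = 7), 7.30 ± 0.39 in Trp53 (n = 8) and 6.69 ± 0.14 in the pools (n = 2). Met tumours thus lay highest, then MetTrp53, Trp53 and normal, and neighbouring tumour genotypes overlapped by most of their ranges. It was above both pools in 21 of 23 tumours, and the exceptions, MetTrp53 tumour 2 and Trp53 tumour 1, both spindloid, lay between the pools.

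miR-93-5p, which shares the seed of miR-106b-5p, reached 6.32, 7.35 and 7.65 in MetTrp53 tumours (lowest, median, highest), 6.81, 7.22 and 7.87 in Met tumours and 6.76, 7.22 and 7.70 in Trp53 tumours, against 6.11 and 6.25 in the pools. Group means were 7.22 ± 0.42, 7.32 ± 0.43 and 7.22 ± 0.32 in MetTrp53, Met and Trp53 tumours and 6.18 ± 0.10 in the pools, in SD over the same samples. All 23 tumours lay above both pools, MetTrp53 tumour 2 least, at 6.32. The tumour genotypes could not be ordered beyond their spread.

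miR-25-3p, of the other seed class, had 6.97, 7.96 and 8.22 in MetTrp53 tumours (lowest, median, highest), 7.29, 7.88 and 8.21 in Met tumours and 7.65, 7.86 and 8.54 in Trp53 tumours, against 7.09 and 7.20 in the pools. Means were 7.88 ± 0.39, 7.86 ± 0.34 and 7.98 ± 0.36 in MetTrp53, Met and Trp53 tumours and 7.14 ± 0.08 in the pools. In 22 of 23 tumours it was above both pools, and MetTrp53 tumour 2 lay below both. The 3 genotype means differed by less than the SD within any genotype.

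miR-20b-5p, the only detected member of miR-106a-363 and in human breast cancer cells known to repress HIF1A, had the widest spread. Its lowest, median and highest levels were 6.29, 6.94 and 7.80 in MetTrp53 tumours, 6.62, 6.88 and 8.66 in Met tumours and 5.87, 6.77 and 7.64 in Trp53 tumours, against 5.29 and 5.85 in the pools. Means were 6.95 ± 0.48, 7.26 ± 0.78 and 6.72 ± 0.52 in MetTrp53, Met and Trp53 tumours and 5.57 ± 0.39 in the pools. The high end came from Met tumour 7, an adenocarcinoma at 8.66, and Met tumour 4, adenosquamous at 8.07. All 23 tumours were above both pools, the lowest being Trp53 tumour 8 at 5.87 beside a pool at 5.85.

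**Figure D2:**
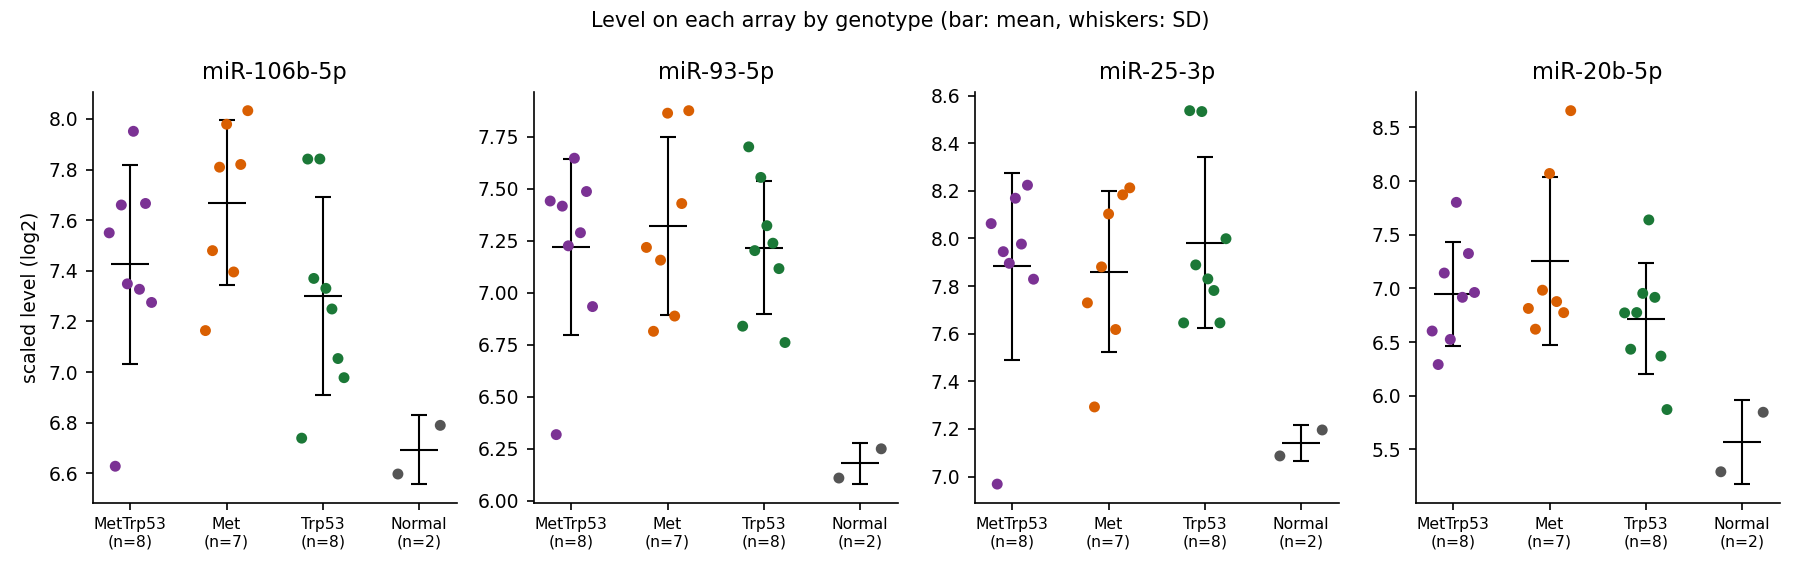
Level on the log2 scale of the 4 detected members on each array, in MetTrp53, Met and Trp53 tumours and normal pools (points: arrays, bar: mean, whiskers: SD), each panel with its own vertical range. The tumours overlap between genotypes in every panel, and the pools, at 6.11 and 6.25 for miR-93-5p for example, lie at the lower end.

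Against the normal pools the 23 tumours had higher miR-93-5p by 1.07 on the log2 scale (SE 0.28, 2.10-fold, 95% interval 1.41 to 3.14, limma adjusted p = 0.00879). miR-20b-5p was higher by 1.40 (SE 0.43, 2.65-fold, 1.44 to 4.87, limma adjusted p = 0.0249). miR-106b-5p stood 0.77 above the pools (SE 0.27, limma adjusted p = 0.0546) and miR-25-3p also 0.77 (SE 0.26, limma adjusted p = 0.0508), so neither passed the threshold of 0.05. Over all 283 miRNAs tested 42 passed (14.8%), of which 17 were higher (6.01%) and 25 lower (8.83%), and 2 of 4 detected members were among the higher ones. The median change of the 4 was 0.92 and that of all 283 was 0.19. All tumours lay above both pools for 18 of 283 miRNAs (6.36%), among them miR-93-5p and miR-20b-5p. The typical miRNA seen on every array stood 0.26 higher in tumours (median), and relative to that shift miR-93-5p stood at 0.81, miR-20b-5p at 1.14, miR-106b-5p at 0.51 and miR-25-3p at 0.50.

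These calls rest on 2 pools and on the scaling. Without pool 1 the adjusted p was 0.191 for miR-93-5p and 0.407 for miR-20b-5p, and without pool 2 it was 0.0808 and 0.0947. With arrays scaled to the percentile over all mouse probes 5 miRNAs were called higher and 36 lower, the median shift was -0.06, the miR-93-5p difference 0.71 (adjusted p = 0.153) and the miR-20b-5p difference 1.04 (adjusted p = 0.128). With quantile normalisation 10 were called higher and 32 lower, miR-93-5p was still called (0.88, adjusted p = 0.0289) while miR-20b-5p was not (1.18, adjusted p = 0.0728), and with scan date as a block miR-20b-5p was not called either (1.28, adjusted p = 0.0646). In all, 38 of 41 alternatives called miR-93-5p and 36 called miR-20b-5p. The other members passed in 7 of 41 each. For miR-106b-5p these were the authors' table (adjusted p = 0.0467), the brightest probe (0.0407), tumours of 1 title number averaged (0.0443), and leaving out MetTrp53 tumour 2 (0.0216), Met tumour 1 (0.0406), Met tumour 5 (0.0496) or Trp53 tumour 1 (0.0394). For miR-25-3p they were averaged title numbers (adjusted p = 0.0447) and leaving out MetTrp53 tumour 2 (0.0121), Met tumour 2 (0.0311), Met tumour 5 (0.047) or Trp53 tumour 1, 2 or 7 (0.0492, 0.048 and 0.0491). All 4 differences stayed positive under the 41 alternatives run.

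Each pool could also be set against tumours on its own slide. On slide 1 the mean of 4 tumours exceeded the pool by 0.73 for miR-106b-5p, 1.19 for miR-93-5p, 0.91 for miR-25-3p and 1.36 for miR-20b-5p. On slide 3 the mean of 4 tumours exceeded the pool by 0.79, 1.21, 0.75 and 1.498 in that order of members. The pools also differed from tumours in markers of some other cells. The 4 muscle miRNAs, all detected in both pools, summed to a linear scaled level of 10723 and 15307 in the pools, against 49.0 to 2129 in tumours with a median of 49.0, the sum of 4 floors. The 3 adipose miRNAs on the array summed to 129 to 874 in tumours and to 1019 and 2282 in the pools, and the 2 endothelial ones to 192 to 1393 in tumours and 1732 and 2119 in the pools. For the other lists the pools lay inside the tumour range. These were epithelial (725 and 750 against 73.4 to 5024), mesenchymal and stromal (1050 and 1963 against 179 to 4365), leukocyte (312 and 910 against 143 to 1612) and erythroid (1312 and 2322 against 196 to 3620). The part of all these markers in the members' differences was not tested, and in such bulk RNA fewer cells of a type and less RNA per cell cannot be told apart.

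By genotype, each set of tumours was compared with the same 2 pools, so these comparisons share their reference samples and their values are given side by side. In MetTrp53 tumours the difference was 0.73 for miR-106b-5p (adjusted p = 0.0857), 1.04 for miR-93-5p (adjusted p = 0.0177), 0.74 for miR-25-3p (adjusted p = 0.0757) and 1.38 for miR-20b-5p (adjusted p = 0.0397), all by limma. In Met tumours it was 0.97 (adjusted p = 0.0264), 1.14 (adjusted p = 0.0134), 0.72 (adjusted p = 0.111) and 1.69 (adjusted p = 0.0155) in the same order. In Trp53 tumours it was 0.61 (adjusted p = 0.162), 1.04 (adjusted p = 0.0205), 0.84 (adjusted p = 0.0463) and 1.15 (adjusted p = 0.0964). Thus miR-93-5p passed in each genotype, miR-20b-5p in MetTrp53 and Met, miR-106b-5p in Met and miR-25-3p in Trp53.

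Of all miRNAs, 50 of 283 were called in MetTrp53 tumours (17.7%, higher 7.77% and lower 9.89%), 40 in Met tumours (14.1%, higher 4.59% and lower 9.54%) and 41 in Trp53 tumours (14.5%, higher 5.65% and lower 8.83%), against 2, 3 and 2 of the 4 members, all higher. All of these member calls were lost without either pool in turn, and when all mouse probes set the percentile. The calls nearest the threshold were lost most often. miR-25-3p in Trp53 tumours was called in only 6 of 26 alternatives, with adjusted p from 0.0408 to 0.367, and was lost without Trp53 tumour 2, 4, 5 or 8. miR-20b-5p in MetTrp53 tumours was called in 12 of 26, with adjusted p from 0.0252 to 0.352, and was lost without MetTrp53 tumour 3, 5, 7 or 8. miR-106b-5p in Met tumours was called in 18 of 25, while miR-93-5p was called in 22 of 26 alternatives in MetTrp53, 21 of 25 in Met and 23 of 26 in Trp53 tumours, and miR-20b-5p in 21 of 25 in Met tumours. Without MetTrp53 tumour 2, miR-106b-5p and miR-25-3p also passed in MetTrp53 tumours, at 0.85 and 0.87 (adjusted p = 0.0274 and 0.0130). A call in one genotype and not in another is no difference between them.

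**Figure D3:**
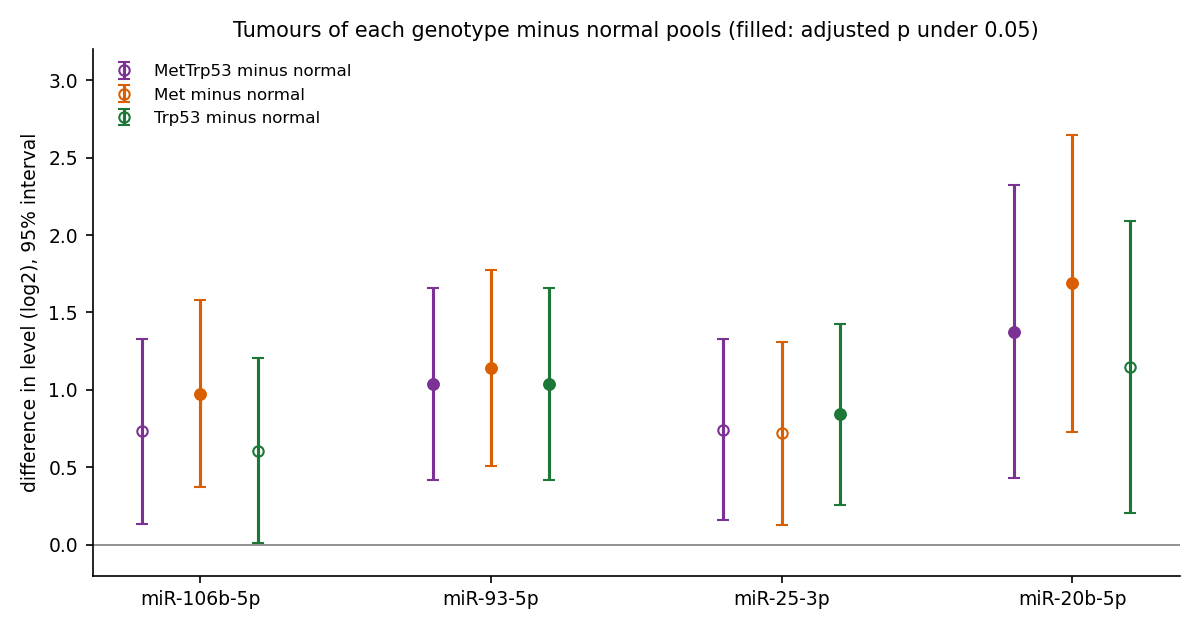
Difference in log2 level between MetTrp53, Met or Trp53 tumours and the 2 normal pools for each detected member, with its 95% interval; filled points passed an adjusted p of 0.05 in limma. Points lie between 0.61 (miR-106b-5p in Trp53) and 1.69 (miR-20b-5p in Met), and the 3 genotypes use the same pools.

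The relatives in miR-17-92 were set beside the members. Of those given next, miR-20a-5p comes from chromosome 14 alone. The mature miR-19b-3p and miR-92a-3p are also made from X-linked hairpins of miR-106a-363, so their values cannot be assigned to either cluster. In the 23 tumours against the pools miR-20a-5p was higher by 1.60 (SE 0.39, limma adjusted p = 0.0048) and miR-19b-3p by 1.62 (SE 0.40, limma adjusted p = 0.00539), whereas miR-92a-3p, at 0.84 (SE 0.36, limma adjusted p = 0.139), did not pass. Of that list 7 could be tested, among them miR-17-5p, detected on neither pool, and miR-17-3p, miR-18a-5p and miR-19a-3p, on 1 pool each. These entered the tests only through their detection in tumours, which favours a higher value there. Their changes also depend on the floor, so no count or median over the list is given against the pools. The value of miR-20b-5p, 1.40, lay near that of miR-20a-5p, while the miR-106b-25 members, from 0.77 to 1.07, lay lower; the difference between members was not tested.

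Between tumour genotypes the members did not differ by the test. In MetTrp53 against Met tumours the log2 differences were -0.24 for miR-106b-5p (95% interval -0.63 to 0.15), -0.10 for miR-93-5p (-0.51 to 0.31), 0.02 for miR-25-3p (-0.36 to 0.41) and -0.31 for miR-20b-5p (-0.93 to 0.31), with limma adjusted p from 0.473 to 0.945. In MetTrp53 against Trp53 tumours they were 0.13 (-0.25 to 0.50), 0.00 (-0.39 to 0.40), -0.10 (-0.47 to 0.27) and 0.23 (-0.37 to 0.83) in the same order. In Met against Trp53 tumours they were 0.37 (-0.02 to 0.76), 0.10 (-0.30 to 0.51), -0.12 (-0.50 to 0.26) and 0.54 (-0.08 to 1.16), with limma adjusted p from 0.210 to 0.758. The intervals for the miR-106b-25 members end within 0.76 of 0 on either side, and those for miR-20b-5p within 1.16.

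Of 283 miRNAs, 6 (2.12%, 1.06% in each direction) were called in MetTrp53 against Met, 0 (0.0%) in MetTrp53 against Trp53 and 36 (12.7%, higher 6.71% and lower 6.01%) in Met against Trp53, and 0 of 4 members in each. For MetTrp53 against Trp53 limma gave 24 miRNAs at an unadjusted p under 0.05, none of them members. The nominal Met excess of miR-20b-5p leaned on 1 array: without Met tumour 7 the Met against Trp53 difference was 0.31, and within the 5 slides it ran from -0.06 to 2.78, the highest value being on the slide of Met tumour 7, with 1 tumour of each genotype. For miR-106b-5p the same difference was 0.16 once spindloid and intermediate pathology were covariates.

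By pathology, all 4 detected members had lower means in spindloid tumours than in other carcinomas, though none passed the test. In spindloid tumours miR-106b-5p had a lowest, median and highest level of 6.63, 7.05 and 7.67, against 7.16, 7.81 and 8.03 in the 12 other carcinomas and 7.25, 7.33 and 7.33 in the 3 intermediate tumours. For miR-93-5p these were 6.32, 6.84 and 7.49 in spindloid tumours, against 6.89, 7.43 and 7.87 in other carcinomas and 7.24, 7.29 and 7.32 in intermediate ones. The spindloid tumours occupied the lower part of the range and overlapped the others.

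miR-25-3p had 6.97, 7.65 and 8.22 in spindloid tumours, against 7.62, 8.08 and 8.54 in other carcinomas and 7.78, 7.83 and 7.98 in intermediate ones. miR-20b-5p had 5.87, 6.52 and 7.32 in spindloid tumours, against 6.43, 6.92 and 8.66 in other carcinomas and 6.92, 6.92 and 7.64 in intermediate ones. Among Trp53 tumours the 3 spindloid ones were the lowest of 8 for miR-106b-5p (6.74, 6.98 and 7.05) and for miR-93-5p (6.76, 6.84 and 7.12). For these members they did not overlap the other 5. For miR-25-3p and miR-20b-5p they did overlap. Spindloid Trp53 tumour 8 stood at 8.00 for miR-25-3p, above Trp53 tumour 6 at 7.78. Spindloid Trp53 tumour 1 stood at 6.77 for miR-20b-5p, above Trp53 tumour 2 at 6.43. How many of all tested miRNAs separate these tumours in the same way was not counted. The separation of the spindloid Trp53 tumours therefore cannot be read as particular to these members. In MetTrp53 tumours the spindloid ones did not separate in this way. Tumour 2 was the lowest of 8 for every detected member. Tumour 7, also spindloid, stood at 7.67 for miR-106b-5p and at 8.22, the highest of the genotype, for miR-25-3p.

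With genotype as covariate, spindloid tumours minus the 15 tumours of any other stated pathology gave -0.45 for miR-106b-5p (SE 0.15, 0.73-fold), -0.49 for miR-93-5p (SE 0.15, 0.71-fold), -0.41 for miR-25-3p (SE 0.16, 0.75-fold) and -0.55 for miR-20b-5p (SE 0.26, 0.68-fold). None passed: limma adjusted p was 0.140, 0.140, 0.199 and 0.337, and unadjusted p was 0.00737, 0.00443, 0.0164 and 0.0484 from the same fit. No miRNA of the 283 passed in this comparison (0.0%), and 41 had an unadjusted p under 0.05, the 4 detected members among them. The median difference was -0.47 over the 4 members and -0.02 over all 283 miRNAs, and in miR-17-92 0 of 7 passed, with a median of -0.31. Of these 7, miR-17-5p lay near the floor of 3.61, with medians of 3.69 in spindloid tumours and 3.73 in other carcinomas. The mature miR-19b-3p and miR-92a-3p are also made from X-linked hairpins, so the list is not separate from miR-106a-363. The adjusted p of the members ran from 0.0733 to 0.792 over the 39 alternatives run for each.

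The difference was negative within each genotype. For miR-93-5p the spindloid mean minus the other mean was -0.44 in MetTrp53 (3 against 4 tumours), -0.59 in Met (1 against 6) and -0.50 in Trp53 (3 against 5), and for miR-106b-5p it was -0.41, -0.22 and -0.60. Within slides, spindloid minus other ran from -0.78 to -0.31 for miR-106b-5p and from -0.75 to -0.18 for miR-93-5p. It ran from -0.97 to -0.06 for miR-25-3p and from -2.06 to 0.16 for miR-20b-5p. On slide 5 the only other tumour of stated pathology was Met tumour 7, where miR-20b-5p was highest. The values within genotypes and slides come from the same tumours as the test above. How often all tested miRNAs show such signs was not counted. Markers of some cell types also differed between these classes. The 6 epithelial miRNAs summed to 73.4 to 140 in spindloid tumours, against 73.4 to 5024 with a median of 2385 in the other stated pathologies, where 73.4 is the sum of 6 floors. The 6 mesenchymal and stromal miRNAs summed to 608 to 4365 in spindloid tumours (median 2107), against 179 to 3992 in the others (median 798). The 5 leukocyte miRNAs summed to 708 to 1612 in spindloid tumours (median 1146), against 143 to 1591 (median 636), and the 2 endothelial ones to 514 to 1278 (median 914), against 192 to 1393 (median 495). The 3 adipose ones summed to 129 to 319 in spindloid tumours (median 251), against 194 to 874 (median 370). The 4 muscle miRNAs had a median sum of 49.0 in both classes. The 3 erythroid ones on the array summed to 424 to 1965 in spindloid tumours (median 1147), against 196 to 3620 (median 1317). The part of all these markers in the members' levels was not tested.

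**Figure D4:**
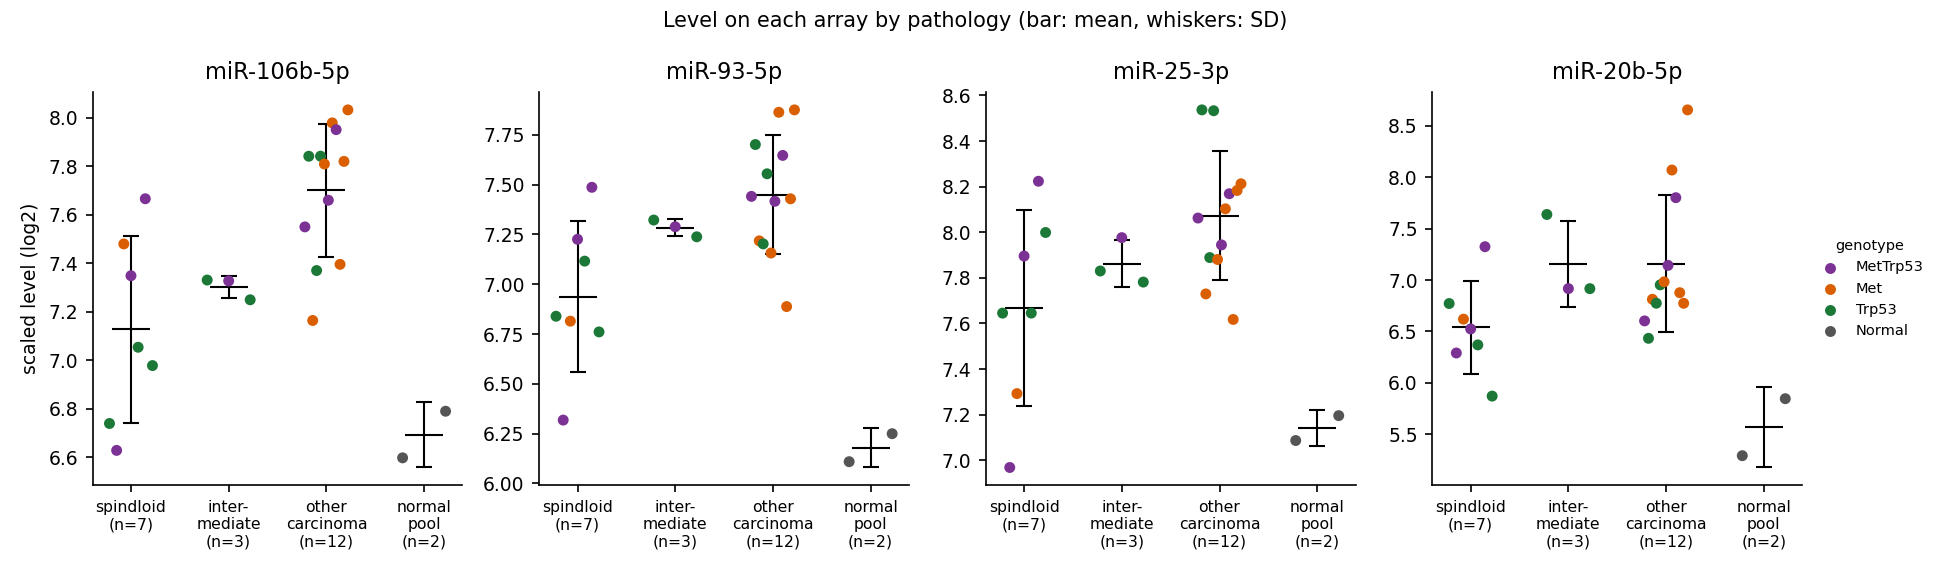
Level on the log2 scale of the 4 detected members in spindloid tumours (n = 7), intermediate tumours (n = 3), other carcinomas (n = 12) and normal pools (n = 2), coloured by genotype (points: arrays, bar: mean, whiskers: SD), each panel with its own vertical range; the MetTrp53 tumour of unstated pathology is not drawn. Spindloid means, such as 6.94 for miR-93-5p, lie between those of the other carcinomas (7.45) and the pools (6.18), with overlapping points.

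Among the other pathologies, the 4 adenocarcinomas had the highest mean of miR-93-5p of any type with more than 1 tumour, 7.64 ± 0.19 (SD, n = 4), with 7.42 ± 0.22 in 3 poorly differentiated adenocarcinomas and 7.27 ± 0.14 in 3 solid nodular carcinomas. For miR-25-3p the means were 8.34 ± 0.24, 8.00 ± 0.15 and 7.93 ± 0.23 in the same order. For miR-106b-5p they were 7.82 ± 0.20, 7.66 ± 0.29 and 7.60 ± 0.38. For miR-20b-5p they were 7.16 ± 1.02, 7.24 ± 0.52 and 6.86 ± 0.11, so there the adenocarcinomas were not highest, even with Met tumour 7 at 8.66. The single adenosquamous tumour stood at 7.98 for miR-106b-5p and 7.86 for miR-93-5p, and the single scirrhous adenocarcinoma at 7.40 and 6.89. With 1 to 4 tumours a type these are descriptions with no test.

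Across the 23 tumours the members of 1 cluster varied together. Pearson's r was 0.85 between miR-106b-5p and miR-93-5p (rho 0.81, permutation p = 1e-05 for both, the smallest that 100000 permutations can give), 0.83 between miR-93-5p and miR-25-3p (rho 0.84, permutation p = 1e-05 for both) and 0.73 between miR-106b-5p and miR-25-3p (rho 0.73, permutation p = 7e-05 and 0.00011). Without the 2 tumours farthest from the median the 3 values were 0.79, 0.75 and 0.62. Within genotypes they lay between 0.92 and 0.97 in MetTrp53, 0.75 and 0.88 in Met and 0.73 and 0.94 in Trp53 tumours, and after slide means were removed between 0.79 and 0.91.

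With the miR-106b-25 members miR-20b-5p gave the following values, whose difference from those within the cluster was not tested. Pearson's r was 0.67 with miR-93-5p (rho 0.58, permutation p = 0.00041 and 0.0039), 0.63 with miR-106b-5p (rho 0.59, permutation p = 0.00116 and 0.00416) and 0.33 with miR-25-3p (rho 0.33, permutation p = 0.12 and 0.121). Without the 2 farthest tumours r was 0.58, 0.64 and 0.38 in that order, the value with miR-106b-5p being above the 0.62 between miR-106b-5p and miR-25-3p. Within genotypes these ran from 0.69 to 0.83 in MetTrp53, from 0.66 to 0.87 in Met and from -0.10 to 0.38 in Trp53 tumours, and the difference between genotypes was not tested. Its closest match was miR-20a-5p, at r = 0.97 (rho 0.90, permutation p = 1e-05 for both, 0.94 without the 2 farthest tumours), with 0.97, 0.96 and 0.97 within Met, MetTrp53 and Trp53 tumours. In all 18 pairs were computed, and after Benjamini-Hochberg adjustment over them the p of r was 3.6e-05 for miR-106b-5p with miR-93-5p and for miR-20b-5p with miR-20a-5p, and 0.135 for miR-20b-5p with miR-25-3p.

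Set against all other 127 miRNAs detected on all arrays, the miR-106b-25 members had each other as their 2 nearest by r over the 23 tumours, followed by miR-677-3p (r = 0.68, 0.75 and 0.55 for miR-106b-5p, miR-93-5p and miR-25-3p). The nearest to miR-20b-5p were miR-20a-5p (r = 0.97), miR-19b-3p (r = 0.92, rho 0.89) and miR-92a-3p (r = 0.81, rho 0.72), while miR-93-5p, miR-106b-5p and miR-25-3p came at ranks 4, 6 and 18. The median r with those 127 miRNAs was 0.03 for miR-106b-5p and -0.09 for miR-20b-5p. These likeness values share the array scaling and come from the same 23 tumours. As printed above, miR-20b-5p and miR-20a-5p differ at 2 bases, and how much signal their probes share was not tested. The mature miR-19b-3p and miR-92a-3p come both from miR-17-92 and from X-linked hairpins of miR-106a-363. Their likeness to miR-20b-5p thus cannot be assigned to either cluster.

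**Figure D5:**
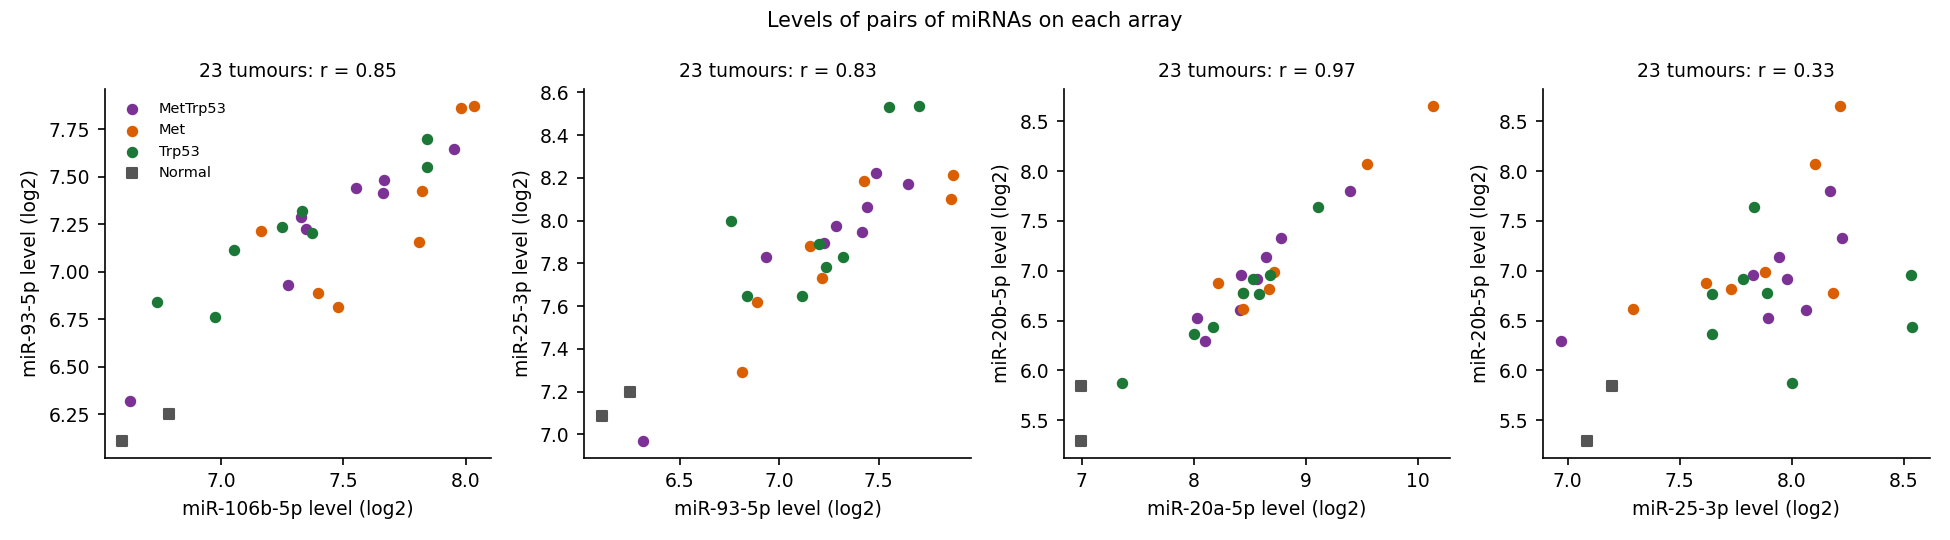
Log2 levels of pairs of miRNAs on each array, coloured by genotype, with the normal pools as squares; r in each title is over the 23 tumours without the pools. The points of miR-93-5p against miR-106b-5p (r = 0.85) and of miR-20b-5p against miR-20a-5p (r = 0.97) follow a line, and those of miR-20b-5p against miR-25-3p (r = 0.33) scatter.

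Each detected member was read by 2 probes of different brightness. The brighter and dimmer probes differed between tumours and pools by 0.79 and 0.74 for miR-106b-5p, 1.06 and 1.08 for miR-93-5p, 0.73 and 0.81 for miR-25-3p and 1.45 and 1.33 for miR-20b-5p. Over the 25 arrays they correlated at r = 0.97, 0.96, 0.81 and 0.99, the miR-25-3p probes being the least alike.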

How the data were processed

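For each array the authors deposited spot intensity values, which the headers credit to Agilent Feature Extraction 10.7.3.1: background-subtracted, spatially detrended and with no scaling between arrays. A table of log2 values per spot was deposited too, made with RMA per the submitters' processing notes, with unstated centring (column medians 1.72 to 1.91), used only as an alternative. Flagged outlier spots and control spots were left out, spots averaged per probe and probes per miRNA. Each array was divided by its 75th percentile over probes detected on all arrays, held at a floor and put on the log2 scale. No spot was saturated (0). To be tested, a miRNA had to be detected on 7 or more tumour arrays, or on both pools. Tests used limma 3.58.1 in R 4.3.3 with all groups in one fit, Benjamini-Hochberg adjustment over 283 miRNAs and a threshold of 0.05; the spindloid comparison used the tumours alone with genotype as covariate. The fit was tested on simulated data with known changes. Alternatives covered background correction (normexp with offset 50, on the median signal because the files hold no mean signal), scaling, floor, filter, slide and scan batches, covariates and leaving out arrays. Fits with parity as covariate left out the pools and the 4 tumours of unstated parity. The named miRNAs were the 7 members, the other arms, miR-17-92 and, for each member detected on all arrays, its 3 nearest miRNAs by r. Correlations used 100000 permutations. Members and lists were chosen with earlier results of these data known.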

Additional observations from a re-analysis of the deposited data

Results flagged for a closer look

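In MetTrp53 tumour 2, a spindloid tumour, miR-25-3p was at 6.97, while the other 7 MetTrp53 tumours lay at 7.83 or above, a gap that took 0.685 of the group's range and exceeded the limit of 0.526 for 8 samples (Dixon's test). This was the 1 such gap among 35 groups of samples examined for miR-106b-5p, miR-93-5p, miR-25-3p, miR-20b-5p, miR-19b-3p, miR-20a-5p and miR-92a-3p, where chance gives about 1 in 20.

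The opposite arm miR-106b-3p, which enters no comparison, was detected on 3 arrays, all of them tumours, and on 0 of 2 pools. By the scanner software's flag the count was 12 arrays, and with at least 90% of spots well above background it was 1.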

How the results depend on the processing

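Over the 4 detected members and all comparisons, 1028 alternatives were run: 913 left direction and call as reported, 64 lost a call, 16 gained one and 35 turned the sign, all 35 in uncalled differences between genotypes; the causes were not tested. For MetTrp53 minus Met, miR-93-5p was 0.0517 with parity and 0.13 with pathology as covariates, and miR-25-3p was -0.0369 with the brightest probe, -0.14 when all mouse probes set the percentile, -0.0344 with slide as a block and -0.0348 with summed signal. For MetTrp53 minus Trp53, the percentile over all mouse probes gave -0.16 for miR-106b-5p, -0.28 for miR-93-5p and -0.0556 for miR-20b-5p, parity gave 0.13 for miR-25-3p, and miR-93-5p was -0.0303 in the authors' table, -0.0357 with normexp, -0.0494 with the brightest probe, -0.0511 with quantile normalisation, -0.0538 with slide as a block and -0.0527 with summed signal. For Met minus Trp53, miR-93-5p was -0.00783 in the authors' table, -0.0175 with that percentile and -0.0755 with pathology covariates, and miR-25-3p was 0.0143 with parity. With 1 array left out, MetTrp53 minus Met ran from -0.19 to 0.0277 for miR-93-5p and from -0.0708 to 0.15 for miR-25-3p, and MetTrp53 minus Trp53 from -0.0624 to 0.13 for miR-93-5p and from -0.15 to 0.0318 for miR-25-3p. Counts of called miRNAs among all tested moved too. Testing only miRNAs detected on all arrays gave 24 for tumours, 27 for MetTrp53, 24 for Met and 19 for Trp53 against normal, where fewer were tested. Only the slides with a pool gave 25 for tumours against normal. Normexp gave 33 for MetTrp53 and 25 for Met against normal, 19 for Met against Trp53 and 7 for spindloid against other. Fitting only the groups compared gave 18 for Met against normal. Met against Trp53 had 10 with parity and 7 with pathology covariates. MetTrp53 against Met had 15 in the authors' table, with a floor 4 times lower or with quantile normalisation, 13 with summed signal and 12 with tumours of 1 title number averaged. It had 0 with a floor 2 times higher, no detection filter, normexp, only those groups, parity, the percentile over all mouse probes, scan date or slide as a block, the software flag, pathology covariates, or trend and robust. Spindloid against other had 1 in the authors' table, with a floor 4 times lower or summed signal, and 17 without intermediate tumours. With 1 array left out the counts ran from 14 to 47 for tumours, 19 to 51 for MetTrp53, 11 to 44 for Met and 17 to 48 for Trp53 against normal, 0 to 41 for MetTrp53 against Met, 0 to 0 for MetTrp53 against Trp53, 19 to 60 for Met against Trp53 and 0 to 1 for spindloid against other. Averaged title numbers were not run for spindloid against other, since a shared number joins different pathologies. Without the detection filter, miRNAs at the floor on all arrays were dropped. No paired analysis was possible because the normal samples were pools and the labels tie no sample of one group to a sample of another. The labels give no replicate numbers either, so tumours were numbered here within each genotype in sample order. Signal over background limits miR-18b-5p and miR-363-3p to bounds, and 2 pools limit every comparison with normal tissue.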
